A study of Mus musculus with 6 samples.

Results

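Voltage-gated sodium and calcium channels were followed across the neurons of the mouse hippocampus with 30 genes: 9 sodium channel α subunits (Scn), 3 sodium channel β subunits, 10 calcium channel α1 subunits (Cacna1), 4 α2δ subunits (Cacna2d) and 4 calcium channel β subunits (Cacnb). They were taken by gene symbol from the 32285 genes of the deposited matrices, and all 30 were found. Each gene's level is its UMI count summed over the cells of a class and a sample, scaled to counts per 1000000 UMIs of that sum (CPM). A UMI is a molecular tag that counts one captured transcript once.

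The libraries are droplet single-cell RNA libraries of hippocampal tissue from mice aged 6 months, with 2 samples in each of 3 groups. Whether whole cells or nuclei were loaded is not stated in the sources used here. WT-PBS were wild-type littermates given PBS, 5×FAD-PBS were mice of the 5×FAD line given PBS, and 5×FAD-Aβ3FTnAu were mice of that line given Aβ3FTnAu. 5×FAD mice express human amyloid precursor protein and presenilin transgenes with familial Alzheimer's disease mutations under the neuronal Thy1 promoter and build up amyloid-β plaques. Aβ3FTnAu is, by the series title, a nanostructure of protein and gold that recognises and cleaves such plaques. No group of wild-type mice given Aβ3FTnAu was analysed here. Nothing in the labels ties a sample to an animal, so p-values measure the spread between samples, which may be technical.

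A voltage-gated sodium or calcium channel is built around 1 large pore-forming α subunit that opens when the membrane depolarises. Sodium channels drive the rising phase of the action potential and cluster at the axon initial segment, and their β subunits shape gating and placement. Calcium channels turn depolarisation into calcium entry: the P/Q and N types trigger transmitter release, L types couple activity to signalling in the cell body and dendrites, and T types open near rest. Their α2δ and β subunits carry the pore to the membrane and tune it.

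Cells were put in 6 classes by marker UMIs, and no channel gene was among the markers. The granule class held 6069 of the 41656 cells kept, the CA1 class 4806, the CA2 class 498, the CA3 class 3045, the interneuron class 3595 and the oligodendrocyte precursor class (precursor below) 1321. The names are those of the marker lists, so each stands for granule-like, CA1-like cells and so on. Every marker of the granule, CA1, CA2, interneuron and precursor lists had its highest mean among the 6 classes in its own class, and so did 7 of 9 CA3 markers. Since cells were assigned by these same markers, that is largely built in and does not test the class names. The CA2 class is the least pure: a median of 18.6 of 10000 UMIs per cell came from the CA3 list and 19.9 from a list for other excitatory neurons, against 6.48 from its own list. Another 2719 cells were assigned to that other excitatory list. They are outside the 6 classes, and the rankings below are among the 6. Of the CA3 class, 390 cells sat in a cluster led by Col6a1 and Htr2c with no CA3 marker among its 10 leading genes, and the results were also computed without them.

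One library stands apart. In WT-PBS sample 1, 86.4% of granule cells, 69.4% of CA1 cells and 89.7% of precursor cells sat in clusters that held at most 4.93% of those cells in any other sample, so the counts of pairs and the leading differences that involve wild-type mice are also given without it. That sample was the deepest, with 76780861 UMIs against 32528417 to 42342460 in the others, and its CA2, CA3 and interneuron cells sat mainly in the clusters that held those of the other samples. The share of barcodes without any mitochondrial UMI ran from 17.9% to 66.6% between samples, lowest in 5×FAD-PBS and highest in 5×FAD-Aβ3FTnAu. Pairs of libraries shared 9 to 45 cell barcodes.

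Of the 30 genes, 25 had enough counts to be tested across classes. Each class was compared with the mean of the other 5 on the log2 scale, with the sample as a block, using edgeR's quasi-likelihood test with Benjamini-Hochberg adjustment over 15333 genes. Of the 150 pairs of channel gene and class, 65 were higher, 55 were lower and 30 did not pass. The comparison is of log2 values, and in 8 of the 65 higher pairs the class mean in CPM was below the mean of the other 5, as for Scn9a in granule cells (37.3 against 80.1 CPM). Among all genes, 26.6% of such pairs were higher and 22.8% lower. The 25 genes each passed in at least 1 class, and 102 of the 120 pairs that passed went the same way in all 6 samples. Without WT-PBS sample 1 the counts were 63 higher and 53 lower.

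By class, most of the higher pairs were in the pyramidal and granule classes, each set against a mean that includes precursors. In the granule class 14 channel genes were higher and 6 lower, where 31% and 26.8% of all genes were. The CA1 class had 15 higher and 5 lower (27.3% and 18.8% of all genes), the CA2 class 10 and 7 (17.5% and 16.2%), and the CA3 class 16 and 5 (27.7% and 21.1%). In interneurons 8 were higher and 11 lower (32.2% and 26.6%). In precursors 2 were higher and 21 lower (23.9% and 27.2%), with a median difference of -1.07 against -0.06 over all genes. Precursors enter the mean of the other 5 for every neuron class, so their low levels raise the differences there. Median differences of the channel genes were 0.26 in granule cells, 0.32 in CA1, 0.13 in CA2, 0.33 in CA3 and -0.02 in interneurons. No test among the neuron classes alone was made. The heat map of each class against the mean of the other 5 shows the blocks of higher and lower pairs.

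**Figure D1:**
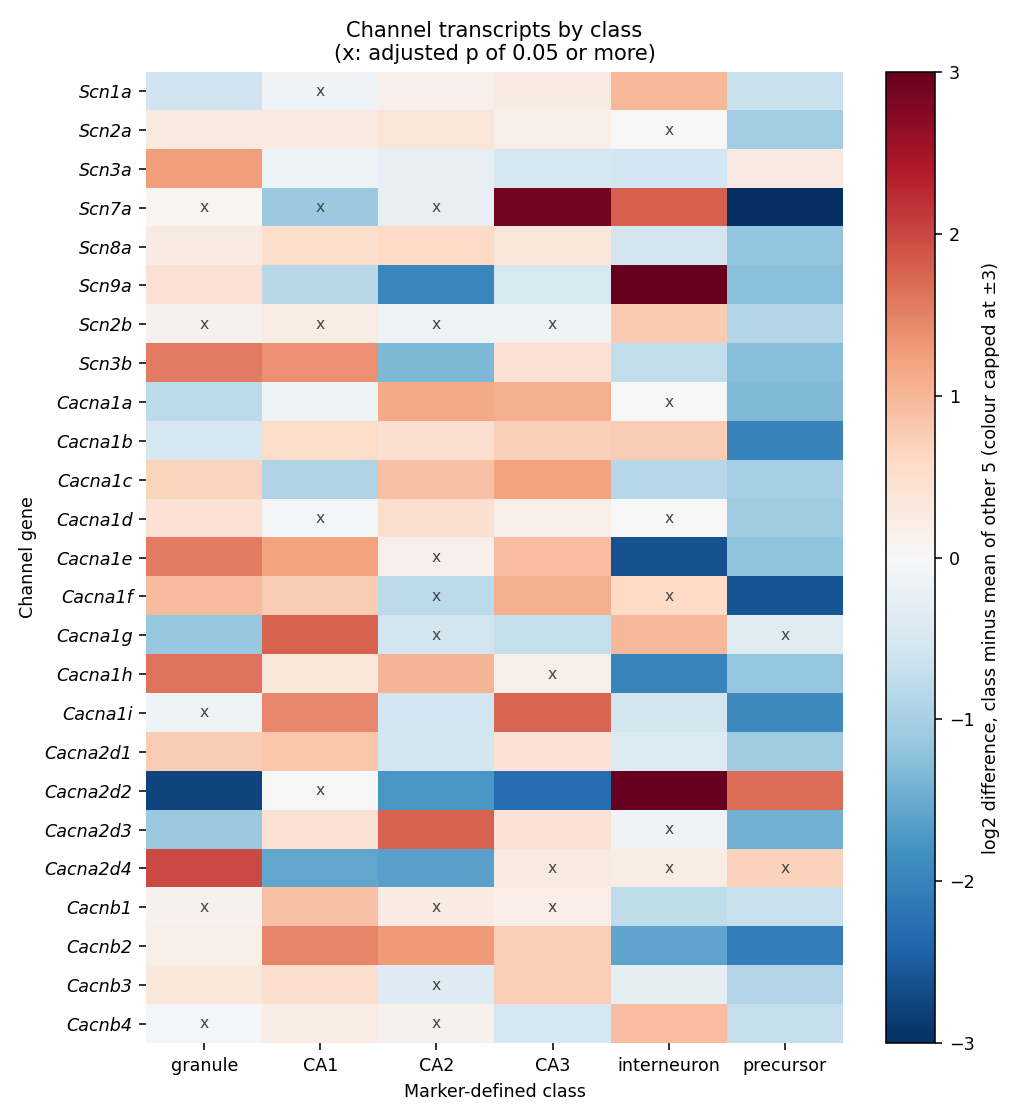
Level of the 25 tested channel genes (vertical axis, grouped by subunit) in the 6 classes (horizontal axis), as the colour of the log2 difference of a class from the mean of the other 5; fields marked x did not pass the test, and the colour is capped at ±3. Scn9a and Cacna2d2 stand out in interneurons (4.07 and 5.15), and most genes are low in precursors.

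Sodium channel α subunits differed in how far they were spread over the classes. Scn2a, which encodes Nav1.2 of excitatory axons, was nearly level among the neuron classes: its lowest, median and highest CPM over the 6 samples were 336, 352 and 439 in granule cells and 309, 327 and 354 in interneurons. Those ranges overlap, and only precursors stood clearly lower, at 176, 193 and 228 (difference -1.04 ± 0.07 SE on the log2 scale, edgeR adjusted p = 2.15e-18). Outside the 6 classes, cells of the other excitatory list had 377.2, 442.7 and 484.5 CPM of Scn2a, above every interneuron value. Scn8a, which encodes Nav1.6 of mature axon initial segments and nodes, had 352, 410 and 428 CPM in CA2 and 349, 392 and 431 in CA1. It was lower in interneurons (212, 241 and 259 CPM, -0.55 ± 0.04, adjusted p = 5.49e-15), whose range lay below that of every other neuron class.

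Scn1a, which encodes Nav1.1, the main sodium channel of many inhibitory neurons, was highest in interneurons. Its 6 interneuron values ran from 400 over a median of 447 to 544 CPM, all above the highest CA3 value of 286, and the difference from the other classes was 0.99 ± 0.04 (edgeR adjusted p = 9.59e-25). Granule cells were the lowest neurons, at 161, 173 and 182 CPM. Scn3a, which encodes Nav1.3, best known from embryonic brain, had the opposite order at its top. It reached 228, 232 and 259 CPM in granule cells (1.26 ± 0.04, adjusted p = 2.11e-28) and 127, 157 and 176 in precursors, with no other class above 122.

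Scn9a, which encodes Nav1.7 and is best known from sensory neurons, was largely an interneuron transcript among the 6 classes. Interneurons had 166, 324 and 460 CPM, the lowest being WT-PBS sample 1, and the next class, granule cells, had 23.8, 36 and 49.9. Outside the 6 classes, cells of the other excitatory list had 30.12, 42.65 and 91.58 CPM of Scn9a. The interneuron difference was 4.07 ± 0.10 (adjusted p = 2.62e-33). Scn7a, which encodes the sodium-sensing channel Nax, was low everywhere and highest in the CA3 class, at 6.40, 10.5 and 14.5 CPM (2.88 ± 0.21, adjusted p = 5.56e-16). Interneurons came next, at 4.46 to 8.89 CPM, and the ranges overlap, with CA3 higher in 5 of 6 samples. Within the CA3 class Scn7a averaged 40.2 CPM in the cluster led by Col6a1 and 6.57 CPM in the cluster led by Nectin3. The interneuron mean was 6.13 CPM. Without the Col6a1 cluster the CA3 difference was 2.31 (edgeR adjusted p = 1.19e-10). That is against the mean of all other classes, which includes precursors at 0.37 CPM, and not against interneurons.

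5 of these genes lie in 1 stretch of chromosome 2 of GRCm38, in the order Scn3a, Scn2a, Scn1a, Scn9a and Scn7a from 65457118 to 66784914. Scn2a is on the plus strand and the other 4 are on the minus strand. Their leading classes were granule cells for Scn3a, no single class for Scn2a, and interneurons for Scn1a and Scn9a. For Scn7a it was the CA3 class, whose range overlaps that of interneurons and whose Nectin3 cluster was near the interneuron mean. The plot of 12 channel genes by sample shows the class levels that differ most.

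**Figure D2:**
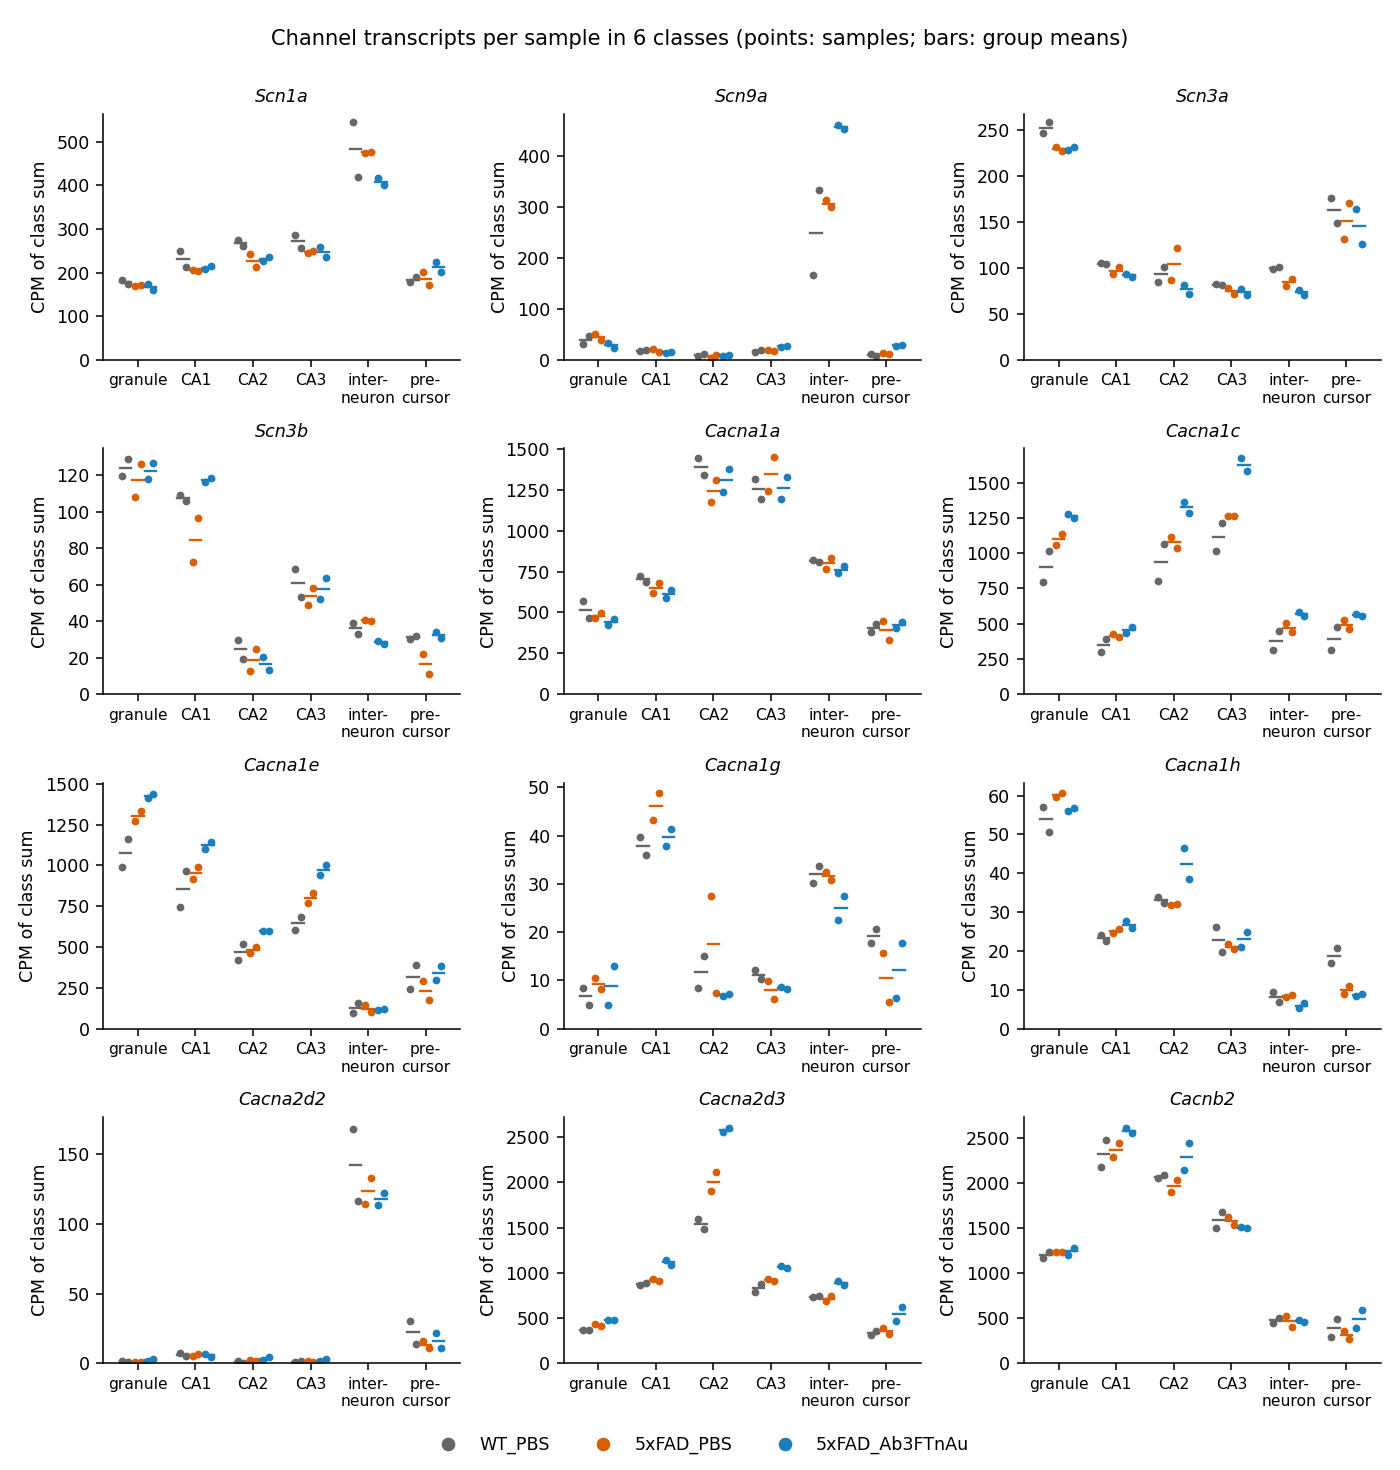
CPM of 12 channel genes (1 panel each, linear axis from 0) in the 6 classes, with 1 point per sample, coloured by group, and a bar at the mean of each group's 2 samples. The interneuron points of Scn1a, Scn9a and Cacna2d2 lie above all others of those genes, and those of Cacna1e lie below.

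The sodium channel β subunits tested were Scn2b and Scn3b. Scn3b, a noncovalent partner of α subunits, was high in granule cells (108, 123 and 129 CPM, 1.55 ± 0.07, edgeR adjusted p = 2.52e-23) and in CA1 (72.5, 108 and 118 CPM, 1.38 ± 0.07, adjusted p = 6.59e-21). It was low in CA2, at 12.7, 19.9 and 29.7 CPM (-1.35 ± 0.16, adjusted p = 2.19e-09), below every CA1, CA3 and granule value. Scn2b, which binds α subunits covalently, was highest in interneurons (18.8, 24.8 and 52.5 CPM, 0.79 ± 0.11, adjusted p = 3.98e-08), but these values overlap those of the granule class.

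Among the presynaptic calcium channels, Cacna1a, the P/Q-type pore, was highest in CA2 and CA3. Its values were 1174, 1325 and 1445 CPM in CA2 (1.13 ± 0.05, edgeR adjusted p = 8.83e-24) and 1191, 1279 and 1448 in CA3 (1.09 ± 0.05, adjusted p = 1.69e-24), and these 2 classes overlap. Granule cells were the lowest neurons at 426, 465 and 569 CPM. Cacna1b, the N-type pore, was highest in interneurons (246, 260 and 288 CPM, 0.77 ± 0.05, adjusted p = 1.88e-19), overlapping CA3 (190, 222 and 247), and lowest in precursors (44.5, 56.7 and 88.8).

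Cacna1e, the R-type pore, had the widest spread of the high-level α1 genes. Granule cells had 991, 1303 and 1439 CPM (1.54 ± 0.06, adjusted p = 4.91e-26) and CA1 746, 978 and 1145. Interneurons had 93.7, 118 and 156 CPM (-2.62 ± 0.08, adjusted p = 2.94e-29), below all values of every other class.

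The L-type pores were split between classes. Cacna1c, which encodes Cav1.2, was high in CA3 (1018, 1266 and 1675 CPM, 1.2 ± 0.04, edgeR adjusted p = 3.85e-28), with CA2 and granule cells next. CA1 was lowest, at 303, 416 and 476 CPM (-0.90 ± 0.05, adjusted p = 3.21e-21), so that the neighbouring CA1 and CA3 fields did not overlap. Cacna1d, which encodes Cav1.3, varied less: 541, 580 and 600 CPM in granule cells (0.44 ± 0.04, adjusted p = 3.95e-13) against 371, 406 and 446 in CA1. Cacna1f, the retinal L-type pore, had 256 UMIs in the 6 classes together and a highest class mean of 2.73 CPM.

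Each T-type pore had its own leading class. Cacna1g, which encodes Cav3.1, was high in CA1 (36, 40.6 and 48.8 CPM, 1.78 ± 0.10, edgeR adjusted p = 7.16e-20) and then in interneurons (22.4, 30.5 and 33.7 CPM, 0.99 ± 0.12), while granule cells had 4.87, 8.30 and 13. It was as high as in CA1 in cells of the other excitatory list, at 33.7, 41.6 and 47.9 CPM. Cacna1h, which encodes Cav3.2, was high in granule cells (50.7, 57.0 and 60.5 CPM, 1.63 ± 0.07, adjusted p = 4.98e-25) and lowest in interneurons (5.29, 7.56 and 9.32 CPM, -1.99 ± 0.12). Cacna1i, which encodes Cav3.3, was high in CA3 (34.5, 41.4 and 45.0 CPM, 1.75 ± 0.10, adjusted p = 3.27e-20) and CA1 (32, 33.4 and 43.6 CPM, 1.43 ± 0.10), with CA2 lower than both at 8.12, 9.45 and 19.5. CA1 cells therefore had Cacna1g and Cacna1i at their higher levels, granule cells Cacna1h, and CA3 cells Cacna1i.

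The α2δ subunits, which act in channel trafficking, gave the largest class difference of the family. Cacna2d2 had 113, 119 and 168 CPM in interneurons and 10.9, 14.7 and 30.3 in precursors, while no value in the granule, CA1, CA2 or CA3 classes exceeded 7.02. The interneuron difference was 5.15 ± 0.09 (edgeR adjusted p = 1.82e-39). The precursor difference of 1.67 ± 0.25 is on the log scale, where the low excitatory classes pull down the mean of the others: the precursor mean of 17.2 CPM is below the 27.7 CPM averaged over the other 5 classes.

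Cacna2d1 was high in granule cells (904, 968 and 1015 CPM, 0.77 ± 0.05, adjusted p = 5.48e-19) and CA1 (844, 922 and 1025 CPM), and low in CA2 (347, 413 and 489 CPM, -0.55 ± 0.06). Cacna2d3 was highest in CA2: its 6 values there ran from 1479 over 2007 to 2606 CPM, all above the highest value of any other class, 1141 in CA1 (1.77 ± 0.06, adjusted p = 6.53e-29). CA2 thus sat at the top for Cacna2d3 and at the bottom of the neurons for Cacna2d1, where it overlaps interneurons. Cacna2d4, the retinal α2δ subunit, was at most 7.91 CPM in a class mean, and oligodendrocyte-like cells held more of it, 24.0 CPM.

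Of the cytoplasmic β subunits, Cacnb2 and Cacnb4 carried most of the class differences. Cacnb2 was high in CA1 (2177, 2461 and 2619 CPM, 1.46 ± 0.06, edgeR adjusted p = 7.10e-25) and CA2 (1903, 2072 and 2445 CPM, 1.27 ± 0.06), and low in interneurons (402, 469 and 527 CPM, -1.58 ± 0.08) and precursors. Cacnb4, whose loss causes epilepsy and ataxia in lethargic mice, led in the class where Cacnb2 was low. Among the 6 classes it was highest in interneurons (439, 542 and 586 CPM, 0.92 ± 0.06, adjusted p = 5.34e-17) and lowest in CA3 (159, 210 and 239 CPM, -0.49 ± 0.07), where its range overlaps that of precursors. Cells of the other excitatory list had more Cacnb4 than any interneuron sample, at 608, 732 and 884 CPM. Cacnb1 was higher in CA1 (21.2, 26.2 and 31.0 CPM, 0.87 ± 0.08) and Cacnb3 in CA3 (13.2, 19.1 and 24.3 CPM, 0.74 ± 0.10), both at low levels with overlapping neighbours for Cacnb3.

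The 5 genes left out of the class test were near the limit of detection in the 118903467 UMIs of the 6 classes. Scn4a, the skeletal muscle pore, had 3 UMIs, and Cacna1s, the skeletal muscle L-type pore, had 11. Scn10a and Scn11a, the pores of pain-sensing neurons, had 9 and 7. Scn4b, the β subunit of resurgent sodium current, had 115, with a highest class mean of 1.59 CPM in CA1. In precursors, 3 UMIs would amount to 0.911 CPM, which is the level that a count of 0 allows there, counting error only.

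Interneurons are a mixture, and their clusters split the channel genes further. Cluster 7 was led by Sst, cluster 13 by Vip and Adarb2, and cluster 32 by Hapln1 and Fgf13. The cluster names below are those of leading genes, not of single cell types. Pvalb averaged 23.4 CPM in cluster 7, against 2.13 in cluster 13 and 1.26 in cluster 32. These clusters were made from the same cells' genes, so their levels are given without a test. Cacna2d2 averaged 211 ± 26.1 CPM in the Sst cluster (SD, n = 6 samples), 30.2 ± 6.08 in the Vip cluster and 21.2 ± 9.15 in the Hapln1 cluster.

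Cacna2d1 and Cacna2d3 took opposite sides in these clusters. Cacna2d1 averaged 54.1 ± 23.5 CPM in the Sst cluster, 159 ± 12.9 in the Vip cluster and 2603 ± 80.5 in the Hapln1 cluster. Cacna2d3 averaged 900 ± 126, 996 ± 147 and 43.5 ± 20.1 in the same order, and the Hapln1 range did not overlap the other 2 for either gene. The interneuron class means of 512 CPM for Cacna2d1 and 778 for Cacna2d3 average over this split. Cacna1a averaged 1007 ± 32.8 CPM in the Sst cluster and 909 ± 88.0 in the Hapln1 cluster, but 299 ± 36.6 in the Vip cluster. Scn1a was even across the 3, at 448 ± 65.7, 452 ± 54.6 and 517 ± 48.9 CPM.

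**Figure D3:**
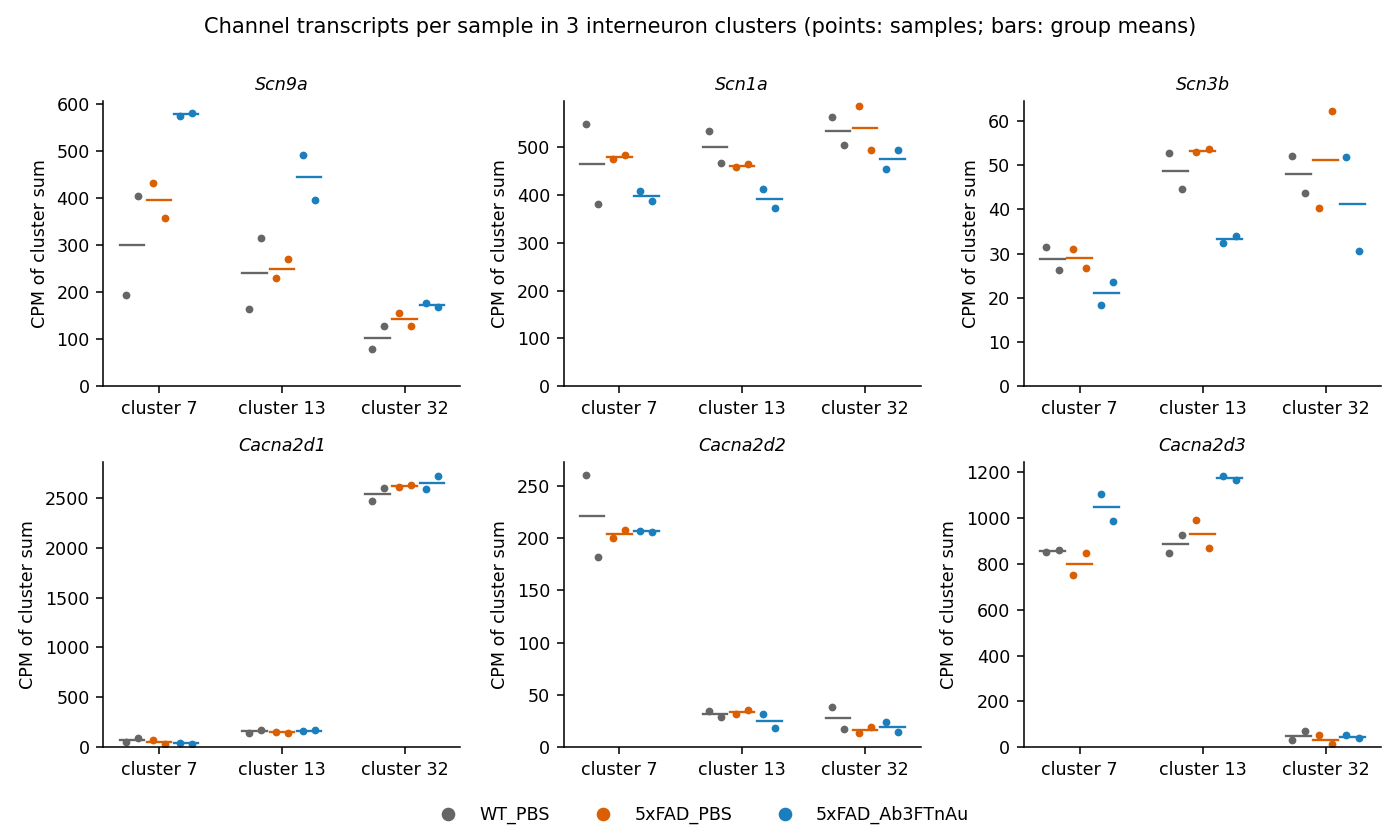
CPM (linear axis from 0) of 6 channel genes, 1 panel each, in clusters 7 (Sst), 13 (Vip) and 32 (Hapln1), with 1 point per sample, coloured by group, and a bar at each group's mean. The points of Cacna2d1 in the Hapln1 cluster lie near 2603 CPM and those of Cacna2d3 near 43.5, with the order turned round in the Sst and Vip clusters.

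Upstream sequence is shown for 3 genes that had their highest level in interneurons. The sequences are the 250 bases before the annotated start from RefSeq on GRCm38.p6, matched by symbol for 24 of the 30 genes (34 windows), written 5′ to 3′ on the gene's strand. The RefSeq start used for Cacna2d2 lies inside the gene span of the annotation. The capitals mark GGGCGG, the GC box bound by Sp1-type factors.

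Cacna2d2, chr9:107399630-107399879 (plus strand): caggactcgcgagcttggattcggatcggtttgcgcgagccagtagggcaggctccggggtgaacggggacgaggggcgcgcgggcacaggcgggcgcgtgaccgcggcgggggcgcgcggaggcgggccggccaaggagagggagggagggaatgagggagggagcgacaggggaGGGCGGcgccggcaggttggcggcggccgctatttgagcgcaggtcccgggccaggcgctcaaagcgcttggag
Scn9a, chr2:66634963-66635212 (minus strand): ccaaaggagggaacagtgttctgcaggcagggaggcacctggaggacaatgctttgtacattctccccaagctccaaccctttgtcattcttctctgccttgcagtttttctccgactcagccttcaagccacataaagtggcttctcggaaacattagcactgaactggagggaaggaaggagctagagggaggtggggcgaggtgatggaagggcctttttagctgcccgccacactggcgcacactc
Scn1a, chr2:66440838-66441087 (minus strand): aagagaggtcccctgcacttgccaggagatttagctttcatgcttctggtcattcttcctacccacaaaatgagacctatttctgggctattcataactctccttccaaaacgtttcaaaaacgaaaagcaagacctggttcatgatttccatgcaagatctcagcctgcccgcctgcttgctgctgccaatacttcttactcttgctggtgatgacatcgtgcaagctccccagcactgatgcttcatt

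Cacna2d2 has a GC-rich window (74.4% GC, 34 CpG, 1 GC box), while Scn9a (54.4%, 5 CpG) and Scn1a (46.8%, 4 CpG) hold no GC box. Motifs were searched on both strands. GGGCGG was in 13 of the 34 channel windows (38.2%, against 32.7% of all windows of that length), TATAAA in 2 (5.88% against 12.4%), and TAATTA, a core of homeodomain sites, and TGACGTCA, the cAMP response element, in none (4.84% and 1.55% of all windows). These are matches of letters in 1 window and say nothing of binding.

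Channel UMIs were also counted in glial cells. Oligodendrocyte-like cells had a summed level of 5 general neuron markers of 633 to 2147 CPM, against 4224 to 4464 in granule cells and 1526 to 2542 in precursors. In CA1 and CA3 19 of the 25 channel genes exceeded the oligodendrocyte level in all 6 samples, in granule cells 20, in interneurons 16, in CA2 14 and in precursors 10. Against astrocyte-like cells the counts were 20 in CA1, 18 in CA3 and in granule cells, 15 in interneurons, 14 in CA2 and 11 in precursors. In interneurons, Cacna2d2 and Scn9a were far above the level of oligodendrocyte-like cells (2.73 and 11.3 CPM). Astrocyte-like cells had more Cacna2d2, at a mean of 30.99 CPM (15.98 to 70.92), and interneurons exceeded them in all 6 samples. The granule, CA1, CA2, CA3 and precursor classes had less Cacna2d2 than astrocyte-like cells in all 6 samples. The astrocyte-like values rest on 58 UMIs of Cacna2d2 over the 6 samples. Not every channel level was above that of oligodendrocyte-like cells: Cacna1e in interneurons averaged 121 CPM against 255, and Cacnb4 in CA3 202 against 284, lower in all 6 samples. Microglia-like cells held more, with 2570 to 3673 CPM of the neuron markers, and averaged 639 CPM of Cacna1e, 650 of Cacna1a, 486 of Cacna1d and 1088 of Cacnb2. Against them, 11 of the 25 genes were higher in all 6 samples in CA1, 10 in granule cells and in CA3, 8 in CA2 and in interneurons and 2 in precursors, and 10 were lower in all 6 in precursors. The same counts over all genes were not made, so the counts against glial cells cannot be read as particular to channel genes. Median UMIs per cell were 1404 to 2299 in microglia-like and 1244 to 1482 in oligodendrocyte-like cells, against 3683 to 5725 in interneurons. The part of free RNA in these levels was not tested. 16 of the 30 genes overlap a gene on the opposite strand and none on the same strand, and the sources used here do not state whether counting used strand.

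Genes linked by name or role to these channel systems were read from 4 lists. Over all genes, 26.6% of gene and class pairs were higher and 22.8% lower. Of the partners of sodium channels at the axon initial segment, 23 of 54 pairs were higher and 21 lower. The fibroblast growth factor homologous factor Fgf13, which binds sodium channel tails, stood at 1104 CPM in interneurons against 121 in the other classes (3.12 ± 0.06, edgeR adjusted p = 7.42e-39), and Fgf12 at 2103 against 876 (1.19 ± 0.04). Of genes named as γ subunits and of channel regulators, 36 of 78 were higher and 27 lower. Cacng4 in precursors led them (345 against 6.17 CPM, 7.56 ± 0.12, adjusted p = 1.09e-40). The γ subunit genes were listed by name, and whether their products join calcium channels in these cells was not tested. Of presynaptic tethers and release genes, 32 of 72 were higher and 21 lower, with the active zone gene Bsn highest in CA3 (174 against 99.7 CPM, 1.06 ± 0.05). Of the sodium leak channel complex, 14 of 24 were higher and 8 lower, and all 3 pairs of smallest p were lower in precursors (Unc80, Unc79 and Fam155a).

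The first group comparison asks how the amyloid model differs from wild-type mice. For 5×FAD-PBS against WT-PBS, 130 pairs of channel gene and class had enough counts to be tested, and none passed edgeR's quasi-likelihood test with Benjamini-Hochberg adjustment, where 0.0136% of all gene and class pairs did. At an unadjusted p under 0.05 there were 8 pairs, 4 in each direction, which is 6.15% where 7.4% of all pairs were. DESeq2 also called none of 127, where it called 0.0628% of all pairs. The 2 groups did not overlap in 53 of 130 pairs (40.8%), against 34.7% of all pairs.

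The smallest p belonged to Cacna2d3 in CA2. Its level was 1594 and 1479 CPM in WT-PBS and 1905 and 2110 in 5×FAD-PBS, a difference of 0.44 ± 0.10 that did not pass (adjusted p = 0.482). Both 5×FAD-PBS samples lie above both wild-type samples. Cacnb4 in CA3 had 223 and 215 CPM in WT-PBS and 170 and 159 in 5×FAD-PBS (-0.39 ± 0.12, adjusted p = 0.698). Scn2a in granule cells had 409 and 439 CPM against 350 and 336 (-0.30 ± 0.10, adjusted p = 0.524), and Cacna1e in CA3 a difference of 0.33 ± 0.12 (adjusted p = 0.698).

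These counts turn on the wild-type samples. Without WT-PBS sample 1, which stands apart, 1 pair passed: Cacna2d3 in CA2, at 0.46 ± 0.11 (adjusted p = 0.00663), while 0.284% of all pairs did. Without it Cacnb4 in CA3 differed by -0.42, Scn2a in granule cells by -0.39 and Cacna1e in CA3 by 0.19, and these 3 did not pass (edgeR adjusted p = 0.228, 0.121 and 0.632). Without WT-PBS sample 2, so that the sample that stands apart was the only wild-type one, 22 pairs passed (16.3%, against 16.9% of all pairs), among them Scn9a and Cacna1c in interneurons. In these fits the lone sample is assumed to vary like the other groups.

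The second comparison asks what Aβ3FTnAu changed in 5×FAD mice, and it shares the 5×FAD-PBS samples with the first. None of the 130 pairs passed, where 0.0327% of all pairs did. At an unadjusted p under 0.05 there were 13 pairs, 12 of them higher with Aβ3FTnAu, which is 10% where 14.8% of all pairs were. How such pairs over all genes split by direction was not counted in either comparison. Pairs of different classes come from the same samples, so they are not independent. DESeq2 called none of 121, where it called 0.704% of all pairs. The groups did not overlap in 72 pairs (55.4%), against 54.8% of all pairs.

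Cacna2d3 again had the smallest p, in CA2, with 2552 and 2606 CPM in 5×FAD-Aβ3FTnAu against 1905 and 2110 in 5×FAD-PBS (0.41 ± 0.10, adjusted p = 0.108). Both treated samples lay above both PBS samples for this gene in all 6 classes. In CA1 they had 1141 and 1088 CPM against 930 and 913, and in interneurons 907 and 867 against 684 and 737. These classes come from the same samples. Outside them, oligodendrocyte-like cells had 279 and 221 against 166 and 104. Microglia-like cells had 795 and 417 against 352 and 276.5, and cells of the other excitatory list 599 and 669 against 586 and 540. In astrocyte-like cells both treated samples lay below, at 284 and 79.9 against 295 and 349. Those values come from only 58 and 35 treated cells, against 77 and 71 with PBS. In CA2 cells with no mitochondrial UMI the difference was 0.33 (edgeR adjusted p = 0.618), and in those with at least 1 it was also 0.33 (adjusted p = 0.321). It was 0.18 where classes came from Leiden clusters (adjusted p = 0.503) and 0.27 with a stricter class margin (adjusted p = 0.277). Without WT-PBS sample 1 or 2 it passed, at 0.41 in both fits (adjusted p = 3.32e-05 and 1.68e-05). The CA2 class drew on its clusters unevenly: cluster 27 held 80.8% and 80.7% of it with Aβ3FTnAu against 53.8% and 67.5% with PBS, and the Col6a1 cluster 5.05% and 4.82% against 17.9% and 12.5%. Among CA2 cells of cluster 27, Cacna2d3 had 2829 and 2832 CPM with Aβ3FTnAu, 2517 and 2525 in 5×FAD-PBS and 1968 and 2118 in WT-PBS. The 3 groups did not overlap there either, and no test was made.

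Cacnb4 in CA3 had 205 and 239 CPM with Aβ3FTnAu against 170 and 159 with PBS (0.41 ± 0.12, adjusted p = 0.196), beside the wild-type values of 223 and 215. Cacnb4 in CA2 differed by 0.59 ± 0.19 (adjusted p = 0.185). Scn3b in CA1 had 116 and 118 CPM against 72.5 and 96.5 (0.49 ± 0.14, adjusted p = 0.181), with 109 and 106 in WT-PBS. The plot of group differences shows these pairs among the others. Over the 130 pairs the median difference was 0.02 for 5×FAD-PBS against WT-PBS and 0.07 for Aβ3FTnAu, while the medians over all genes of a class ran from -0.022 to 0.019.

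**Figure D4:**
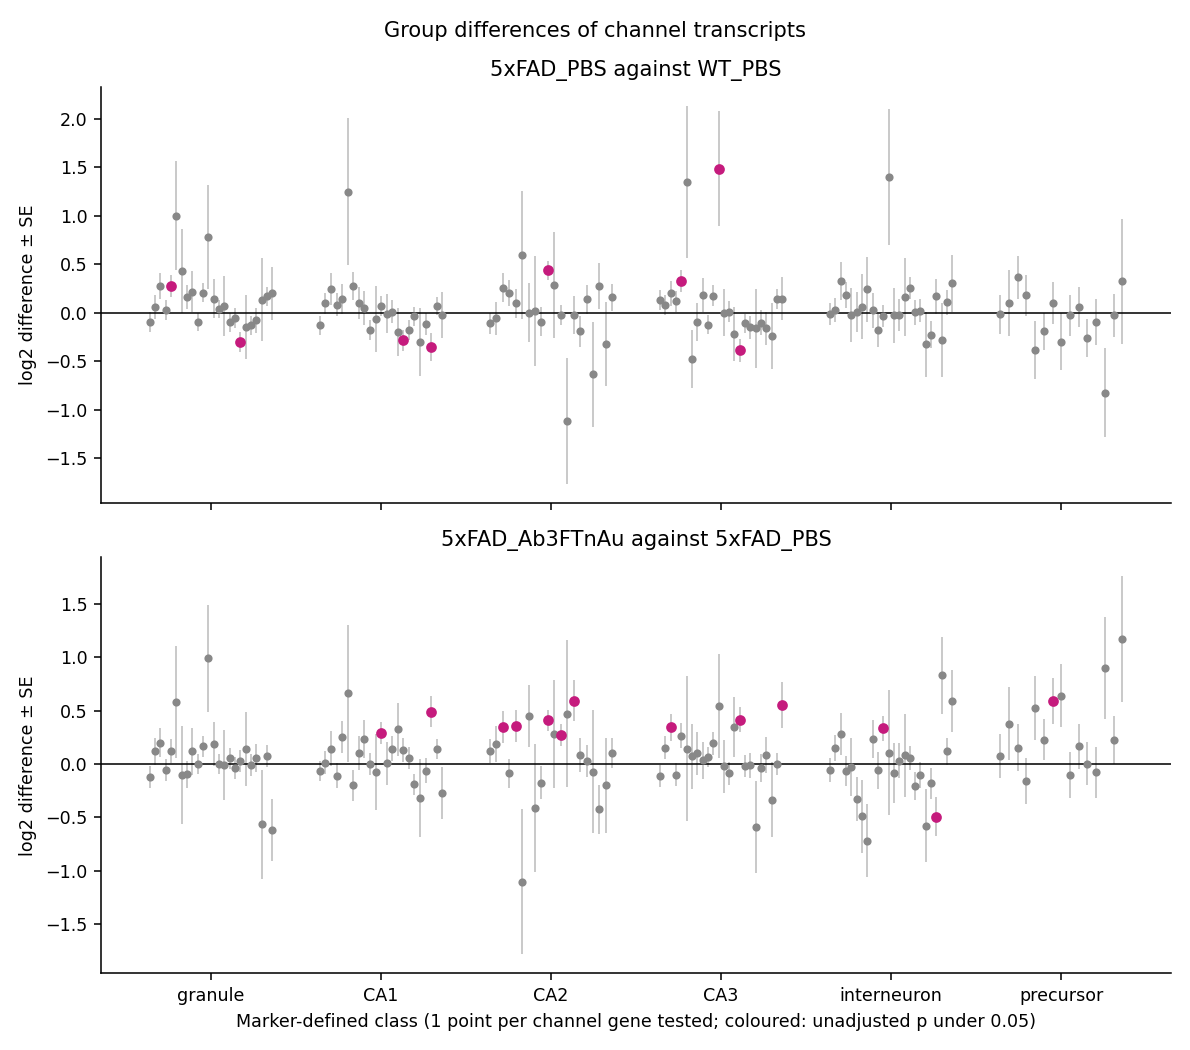
Log2 difference ± SE (vertical axis) of each tested channel gene, 1 point per gene, by class (horizontal axis), for 5×FAD-PBS against WT-PBS (upper panel) and 5×FAD-Aβ3FTnAu against 5×FAD-PBS (lower panel). Coloured points, 8 above and 13 below, have an unadjusted p under 0.05, and no pair passes the adjusted threshold in either comparison.

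The count of 0 depends on the wild-type samples here as well, although they are no part of the comparison. They enter the shared estimate of spread and the low count filter, and the part of either was not tested. Without WT-PBS sample 1, 18 pairs passed (15 higher and 3 lower, 13.6% against 14.2% of all pairs), and without WT-PBS sample 2 again 18 (13.3% against 13.2%). Beside these differences, the share of cells with no mitochondrial UMI was 59.7% ± 3.50 in 5×FAD-Aβ3FTnAu interneurons, 12.9% ± 2.69 in 5×FAD-PBS and 41.2% ± 22.7 in WT-PBS (SD, n = 2), and it moved likewise in the other classes. Summed microglia markers in granule cells ran from 178 to 273 CPM in WT-PBS, 283 to 296 in 5×FAD-PBS and 352 to 373 in 5×FAD-Aβ3FTnAu, with all 8 markers detected. The part of either in the group differences was not tested.

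Whether a group difference itself differed between classes was tested with the class-by-group terms of 1 fit over all classes. For 5×FAD-PBS against WT-PBS no channel gene passed, where 0.998% of all genes did, and Cacnb4 came nearest (edgeR adjusted p = 0.0673, unadjusted p = 0.000781, and adjusted p = 0.0901 without WT-PBS sample 1). For 5×FAD-Aβ3FTnAu against 5×FAD-PBS 2 of 25 passed, Scn9a (F = 11.3, adjusted p = 0.000615) and Scn3b (F = 5.90, adjusted p = 0.0370), where 1.11% of all genes did. Dropping WT-PBS sample 1 kept both, at adjusted p = 1.48e-05 and 0.0117.

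For Scn9a, the 2 samples of each group were 314 and 299 CPM in 5×FAD-PBS interneurons and 460 and 453 with Aβ3FTnAu, with 166 and 334 in WT-PBS. That is a difference of 0.59 ± 0.29 with no overlap, and CA3 went the same way (18.7 and 17.8 to 25.9 and 28.2 CPM, 0.55 ± 0.22). Granule cells went the other way, from 49.9 and 38.5 to 33.6 and 23.8 CPM (-0.62 ± 0.29). None of these passed within its own class. Cells of the other excitatory list, which were outside the test, had 39.5 and 40.6 CPM in 5×FAD-PBS. They had 84.1 and 91.6 with Aβ3FTnAu, and 30.1 and 44.7 in WT-PBS.

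Within interneurons, the Scn9a difference had the same sign in each of the 3 larger clusters. The Sst cluster made up 40.4% to 54.9% of a sample's interneurons, the Vip cluster 27.1% to 34.2% and the Hapln1 cluster 14% to 22.8%. In the Sst cluster Scn9a had 433 and 359 CPM in 5×FAD-PBS and 576 and 582 with Aβ3FTnAu. In the Vip cluster it had 230 and 271 against 493 and 397, and in the Hapln1 cluster 157 and 128 against 177 and 169, so both treated samples were higher in each of the 3.

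Scn3b ran opposite in interneurons and CA1. Interneurons had 40.8 and 40.2 CPM in 5×FAD-PBS and 29.5 and 27.4 with Aβ3FTnAu (-0.49 ± 0.18), while CA1 had the higher values given above, and granule cells differed by 0.06 ± 0.13. In the Vip cluster Scn3b had 53.0 and 53.6 CPM against 32.5 and 34.0. In cells with no mitochondrial UMI, which left 34 and 48 interneurons in the 5×FAD-PBS samples, the class-by-group test gave adjusted p = 0.281 for Scn9a and 0.618 for Scn3b. Among such cells Scn9a differed by 0.48 ± 0.34 in interneurons and -0.48 ± 0.34 in granule cells, and Scn3b by 0.49 ± 0.17 in CA1 and -0.64 ± 0.35 in interneurons. These 4 differences had the signs seen in all cells, whereas Scn9a in CA1 was at 0.80 ± 0.39 in such cells and -0.27 ± 0.24 in all. Leaving out 5×FAD-PBS sample 1 or 5×FAD-Aβ3FTnAu sample 2 gave 0.0633 and 0.0588 for Scn9a, and leaving out any 1 of the 4 5×FAD samples gave 0.156 to 0.332 for Scn3b.

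**Figure D5:**
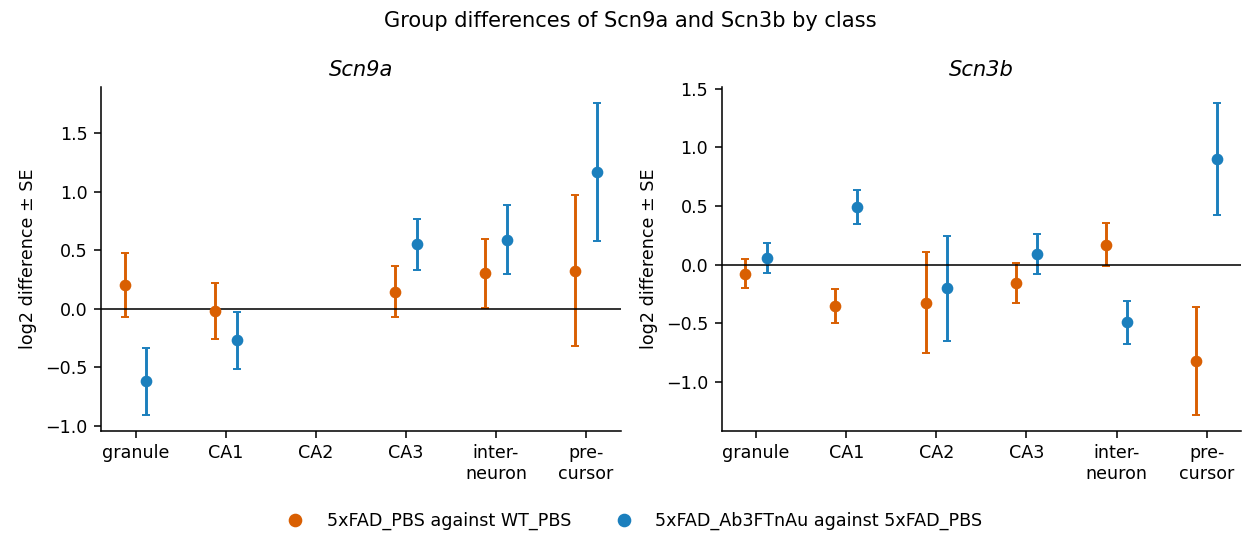
Log2 difference ± SE (vertical axis) of Scn9a and Scn3b by class (horizontal axis), for 5×FAD-PBS against WT-PBS and for 5×FAD-Aβ3FTnAu against 5×FAD-PBS; Scn9a was too low to be tested in CA2. With Aβ3FTnAu, Scn9a lies at -0.62 in granule cells and 0.59 in interneurons, and Scn3b at 0.49 in CA1 and -0.49 in interneurons.

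In the 4 lists of other genes linked to the channels, 1 pair passed in either group comparison. Nfasc, which encodes neurofascin, had 471 and 471 CPM in the precursors of the 5×FAD-PBS samples. It had 143 and 175 in WT-PBS and 353 and 397 in 5×FAD-Aβ3FTnAu. These are oligodendrocyte precursors rather than neurons, and counts per gene do not tell forms of neurofascin apart. The difference between 5×FAD-PBS and WT-PBS was 1.61 ± 0.20 (edgeR adjusted p = 0.0106), 1 of 51 pairs tested in its list. WT-PBS sample 1 holds most of its precursors in a cluster of its own, and without that sample the difference was 1.42 ± 0.25 (edgeR adjusted p = 0.00370). In precursors with no mitochondrial UMI it was 3.13, and in those with at least 1 it was 1.22 and did not pass (edgeR adjusted p = 0.522). Nor did it pass without 5×FAD-PBS sample 1 (adjusted p = 0.103), without 5×FAD-PBS sample 2 (0.0819) or with a stricter class margin (0.0652). Summed oligodendrocyte markers in precursors, all 8 of them detected, ran from 316 to 444 CPM in WT-PBS, 386 to 448 in 5×FAD-PBS and 326 to 340 in 5×FAD-Aβ3FTnAu, and their part in the result was not tested. The γ subunit and regulator, presynaptic and sodium leak lists had no pair past the threshold in either comparison. At an unadjusted p under 0.05 the axon initial segment, γ subunit, presynaptic and leak lists had 3 of 51, 6 of 62, 6 of 71 and 0 of 24 pairs for 5×FAD-PBS against WT-PBS, where 7.4% of all pairs were. For Aβ3FTnAu they had 6 of 51, 10 of 62, 11 of 71 and 1 of 24, where 14.8% of all pairs were. Over the 4 lists, DESeq2 called 1 of 197 pairs for 5×FAD-PBS against WT-PBS, where it called 0.0628% of all pairs. That pair was Nfasc in precursors (1.61, DESeq2 adjusted p = 0.000155). For Aβ3FTnAu DESeq2 called 0 of 203, where it called 0.704% of all pairs.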

How the data were processed

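The values are UMI counts per gene and cell barcode from 10x 3′ v3.1 libraries, deposited by the authors as 1 matrix per sample, and per the file headers they were made by Cell Ranger 7.1.0. The build mm10 and Seurat 4.3.0.1 are named in the submitters' processing notes, and whether intronic reads were counted is not stated there. From 50224 barcodes, 44736 passed a filter of no fewer than 500 genes and 1000 UMIs, with a mitochondrial share of up to 15%, and the highest Scrublet scores, 0.8% per 1000 cells of a sample, were removed as doublets (3080), which left 41656 cells. Each cell took the class with the highest mean marker z-score (100 genes in 13 lists, scaled to 10000 UMIs, limited to -3 to 6), if it led the next class by 0.3 and had at least 3 UMIs from at least 2 of the class's markers. Clusters came from Leiden clustering (scanpy 1.11.5, 2000 variable genes, 30 principal components, 15 neighbours, resolution 1).

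For testing, the cells of each class were added up by sample and given to edgeR 4.0.16 in R 4.3.3: TMM scaling, filterByExpr, the quasi-likelihood F test and Benjamini-Hochberg adjustment over all genes tested, with a threshold of 0.05. Group comparisons used 1 fit per class over all 6 samples, and the class pattern and class-by-group terms 1 fit over 36 sums with the sample as a block. The SE is the absolute log2 difference divided by the square root of F. The tests were also run on simulated counts that had the same spread in all groups. In the data the WT-PBS samples differed more from each other than those of the other groups. The simulated counts cannot show how the tests behave there.

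The channel genes, partner lists, markers and tests were chosen with earlier results of these data known. Apart from accounting for all 30 genes, the text names per class the 4 highest and 2 lowest genes past the threshold (same direction in every sample, at least 10 CPM on the higher side), per group comparison any pair past the threshold and the 4 of smallest p, and per partner list up to 3 of smallest p. Other scaling, filters, class rules, cell sets, DESeq2 1.42.0 and leaving out each sample were tried. The alternatives of only cells with a mitochondrial UMI and of the CA3 class without the cluster led by Col6a1 were chosen after seeing the data.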

Additional observations from a re-analysis of the deposited data

Results flagged for a closer look

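Scn9a, a sodium channel α subunit, was highest in interneurons among the 6 classes, as was Scn1a. Scn9a was picked out because its difference between 5×FAD-Aβ3FTnAu and 5×FAD-PBS differed between classes (class-by-group terms, edgeR adjusted p = 0.000615). The log2 difference was 0.59 ± 0.29 in interneurons, where both treated samples lay above both PBS samples. It was -0.62 ± 0.29 in granule cells, where both lay below. Cells of the other excitatory list, outside the test, had 84.1 and 91.6 CPM with Aβ3FTnAu against 39.5 and 40.6 in 5×FAD-PBS. In cells with no mitochondrial UMI, with 34 and 48 interneurons left in the 5×FAD-PBS samples, the differences were 0.48 ± 0.34 and -0.48 ± 0.34 and the class-by-group test gave an edgeR adjusted p of 0.281. Leaving out 1 sample at a time gave adjusted p = 1.39e-05 to 0.0633.

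Scn3b, a sodium channel β subunit, was picked out by the same edgeR test (adjusted p = 0.03698). Its log2 difference was 0.49 ± 0.14 in CA1 and -0.49 ± 0.18 in interneurons, and in both classes the 2 groups did not overlap. In cells with no mitochondrial UMI the differences were 0.49 ± 0.17 and -0.64 ± 0.35 and the adjusted p was 0.618, and leaving out 1 sample at a time gave 0.00884 to 0.332.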

How the results depend on the processing

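The class pattern changed least. The 65 higher pairs ranged from 52 to 71 and the 55 lower pairs from 47 to 58 over all alternatives, all within 1.5 times. Of the alternative values for the named genes' class differences, 576 kept their direction and side of the threshold, and Cacna1g in CA3 with Leiden classes did not pass (-0.32, edgeR adjusted p = 0.0610).

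For 5×FAD-PBS against WT-PBS the count of pairs past the threshold was 0, with 1 where no low count filter was used and 0 to 22 when 1 sample was left out. For Aβ3FTnAu the count was 0, with 6 where no low count filter was used and 0 to 18 when 1 sample was left out. Every count above 0 on leaving out a sample came without WT-PBS sample 1 or 2. The cause was not tested. With no low count filter 1.07% and 3.28% of all pairs passed in the 2 comparisons. Of the named genes' alternative values, 120 kept their direction and side of the threshold, 16 passed in the same direction and none reversed.

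For the class-by-group test, 2 genes passed, 0 in cells with no mitochondrial UMI, and 0 to 2 when 1 sample was left out. It was 0 without 5×FAD-PBS sample 1 or 5×FAD-Aβ3FTnAu sample 2, and 1, Scn9a, without 5×FAD-PBS sample 2 or 5×FAD-Aβ3FTnAu sample 1. Without the CA3 cells of the cluster led by Col6a1 there were 3, the added gene being Cacnb4 for 5×FAD-PBS against WT-PBS (adjusted p = 0.0399).

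With the replicate number as a block, 0 pairs passed in both group comparisons, and 4 gene and class pairs among all genes in each, against 10 and 24 without it. Correlations between same-numbered samples ran from -0.20 to 0.07, so the numbers were not taken to pair the samples. No channel pair passed with or without the replicate block.

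Depth limits the precursor class most, with 3291639 UMIs and 15 channel genes tested for groups, against 33303179 UMIs and 24 genes in granule cells.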
